A study of Saccharomyces cerevisiae with 28 samples.

Results

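This report describes 4 of the 28 budding yeast (Saccharomyces cerevisiae) RNA-seq libraries of the series, those of 2 wild-type controls: the wild type grown for the pyk1 mutant, with replicates 1 and 3, and BY4741, with replicates 2 and 3. The wild type of pyk1 was set against BY4741, the libraries being picked by strain name, to see how far 2 controls of 1 study differ. The series covers 8 strains, each with 2 cultures, and was built around SESAME, a complex of metabolic enzymes that contains pyruvate kinase. The other strains are pyk1, wt acs2, acs2, sam1, ser33 and shm2.

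For every culture the labels give YPD, a rich glucose medium, and a density at harvest of OD600 0.7 to 1.0, that is, growing cells. RNA was taken with a spin-column kit and made into strand-specific libraries after removal of ribosomal RNA. BY4741 is a laboratory haploid of mating type a, derived from S288C, in which HIS3, LEU2, MET17 and URA3 were disabled. The labels do not say from which strain the wild type of pyk1 comes, which markers it carries, at what temperature it grew or on which day any culture or library was made. The strains of the pyk1 pair are also the 2 without a second sequencing library, so only first libraries were used here. Strain, day and any growth difference cannot be told apart in what follows.

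Budding yeast tunes ribosome production to growth: nucleolar factors that process ribosomal RNA and the ribosomal proteins are made together when nutrients are rich, and storage carbohydrate and stress genes are made when growth slows. Separately, a cells carry genes for a-factor and for the receptor of alpha-factor, and pheromone drives a further set through the transcription factor Ste12, which binds pheromone response elements in promoters. Many nucleolar factor genes carry promoter motifs called PAC and RRPE, and stress genes carry the stress response element, STRE.

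The promoters of 5 genes that stood far apart between the controls are shown here, picked because they hold a motif of their list. PRM4 and GSY1, also among the largest falls, hold no match in theirs. They were read from the R64 (sacCer3) genome, from 250 to 101 bases before the start codon, 5′ to 3′ on the strand of the gene. Capitals mark matches on either strand to PAC (GCGATGAG), RRPE (AAAAATTTT), the pheromone response element (TGAAACA) or STRE (AGGGG), each in the genes of its own list. NSR1 and DBP2, nucleolar factors, were higher in the wild type of pyk1. PRM1 and PRM6, pheromone-induced genes, and GLC3, the glycogen branching enzyme, were lower in it.
NSR1, chrVII:807757-807906, minus strand: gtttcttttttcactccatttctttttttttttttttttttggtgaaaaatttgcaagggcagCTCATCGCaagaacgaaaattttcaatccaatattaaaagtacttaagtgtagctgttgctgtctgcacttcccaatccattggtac
DBP2, chrXIV:413389-413538, plus strand: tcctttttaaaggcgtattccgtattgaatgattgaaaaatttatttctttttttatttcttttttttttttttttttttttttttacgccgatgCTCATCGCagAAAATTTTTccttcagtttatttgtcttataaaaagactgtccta
PRM1, chrXIV:110667-110816, plus strand: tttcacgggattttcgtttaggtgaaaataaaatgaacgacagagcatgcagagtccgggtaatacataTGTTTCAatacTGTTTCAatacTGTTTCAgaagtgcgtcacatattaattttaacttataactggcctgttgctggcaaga
PRM6, chrXIII:181176-181325, minus strand: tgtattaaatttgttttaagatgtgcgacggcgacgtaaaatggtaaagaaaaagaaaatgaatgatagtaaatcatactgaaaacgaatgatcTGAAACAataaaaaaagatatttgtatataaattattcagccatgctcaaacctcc
GLC3, chrV:132870-133019, plus strand: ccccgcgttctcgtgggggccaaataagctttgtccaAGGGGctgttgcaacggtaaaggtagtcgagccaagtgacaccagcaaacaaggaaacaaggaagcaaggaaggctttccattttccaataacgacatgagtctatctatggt

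In the 250 bases before the start codon, PAC was found in 28 of 56 ribosome biogenesis genes (50.0%), against 3.84% of 5987 protein-coding genes. RRPE was found in 39 of the 56 (69.6%), against 6.75% of all. The pheromone response element was found in 10 of 16 pheromone-induced genes and in 5 of 7 a-specific genes, against 6.08% of all. STRE was found in 19 of 30 general stress genes (63.3%), against 18.8% of all. PAC overlaps none of the other motifs in these 5 windows. These matches describe the letters in the window and say nothing of binding.

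The values are in RPKM, in which reads are divided by gene length and library size. The 4 libraries held 15820000 and 14820000 reads in the wild type of pyk1 and 14090000 and 13950000 in BY4741, as recovered from the whole-read steps of low RPKM values. At this depth 3 reads in a gene of 1 kb equal 0.190 to 0.215 RPKM. Across genes, Spearman's rho was 0.994 between the libraries of the wild type of pyk1, 0.975 between those of BY4741 and 0.834 to 0.888 between the controls. These correlations run over genes, which are not independent replicates. The median absolute difference on log2(RPKM + 1) was 0.108 within the wild type of pyk1 and 0.225 within BY4741, so BY4741 replicates 2 and 3 stood farther apart. The wild type of pyk1 was closest to pyk1 (rho 0.984 to 0.986) and next to wt acs2 (0.957 to 0.965).

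The controls differed across much of the genome. In limma on log2(RPKM + 1) with adjustment over all 7125 genes, 2386 genes were higher in the wild type of pyk1 (33.5%) and 728 were lower (10.2%) at an adjusted p under 0.05. Of those, 362 were higher and 41 lower by at least 2 log2 units. Over all 7125 genes the log2 fold change had a median of 0.28, so list medians are read against that shift. List counts are likewise read against the 33.5% higher and 10.2% lower of all genes. With median-of-ratios scaling, which centres the genes, 1584 were higher and 1419 lower, so that the share of calls that were higher was 52.7% in place of 76.6%. Without wt pyk1 replicate 1 only 149 genes were called, and without its replicate 3 only 161, since the spread then rests on the BY4741 pair alone, and of the gene lists below only the mitochondrial tRNA genes then held any call. Most of those tRNA genes were listed at 0 in both BY4741 libraries and so had no spread there. Their calls are therefore no sign of a steadier result. An exact permutation test of 2 against 2 libraries cannot go below p = 0.333, so single genes are judged by the limma fit, which shares its estimate of spread over genes. Nothing in the labels says that the replicates came from separate colonies or days, and the p-values measure only the spread between these libraries. The scatter of strain means shows the shift and its leading groups.

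**Figure D1:**
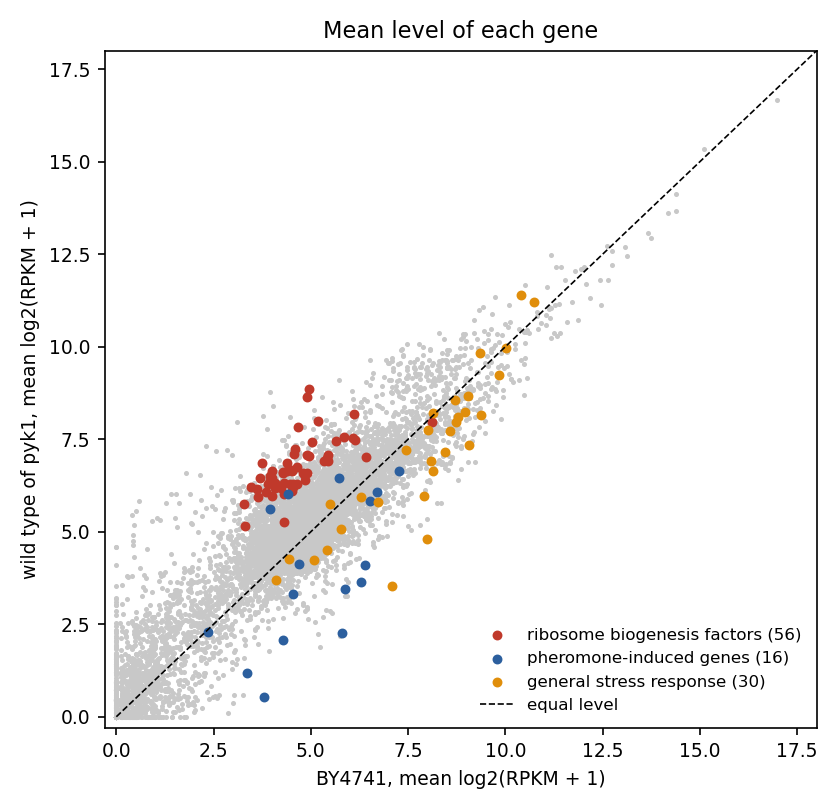
Mean log2(RPKM + 1) of each of 7125 genes over the 2 wild type of pyk1 libraries (vertical axis) and the 2 BY4741 libraries (horizontal axis), with 3 gene lists coloured. Most ribosome biogenesis genes lie above the line of equal level and most pheromone-induced genes below it.

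None of the 4 auxotrophic marker genes was called. URA3, needed for uracil synthesis, had 0.079 and 0.084 RPKM in the wild type of pyk1, against 0 and 0.089 in BY4741, or 0 to 1 reads in each library. LEU2, needed for leucine synthesis, had 0.115 and 0 RPKM in the wild type of pyk1, against 0 and 0.393 in BY4741. MET17, needed for methionine synthesis, had 0.095 and 0 RPKM in the wild type of pyk1, against 0.159 and 0.537 in BY4741. None of the 3 exceeded 10 reads in any of the 4 libraries. HIS3 was at 66.3 and 60.5 RPKM in the wild type of pyk1, against 45.8 and 54.5 in BY4741, and was not called (adjusted p = 0.12, limma). In the wild type of acs2 URA3 had 70.8 and 75.0 RPKM. TRP1, LYS2 and HAP1 were not called either. ADE2, an adenine synthesis gene, was at 119 and 116 RPKM in the wild type of pyk1, against 41.3 and 64.0 in BY4741, and was called higher by 1.17 log2 units (adjusted p = 0.0401), but its adjusted p was 0.0753 with median-of-ratios scaling.

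Both controls carried the transcripts of a cells. STE2, the alpha-factor receptor, had 258 and 243 RPKM in the wild type of pyk1, against 343 and 358 in BY4741. MF(ALPHA)1 and MF(ALPHA)2, the alpha-factor genes, were at or under 2.02 RPKM in all 4 libraries. SAG1, alpha-agglutinin, had 13.9 and 14.8 RPKM in the wild type of pyk1 and 20.2 and 16.6 in BY4741, and was not called. STE3, the a-factor receptor of alpha cells, was low in both but higher in the wild type of pyk1, at 9.30 and 9.84 RPKM, against 2.76 and 2.54 in BY4741 (log2 fold change 1.53, SE 0.0828, adjusted p = 0.00791, limma). HMRA1, to which reads of the a1 gene at the mating-type locus also map, had 191 and 209 RPKM in the wild type of pyk1, against 79.0 and 45.5 in BY4741, and was higher by 1.72 log2 units (adjusted p = 0.0303). MATALPHA2, which shares reads with a near-identical copy at a silent locus, had 35.3 and 36.0 RPKM in the wild type of pyk1, against 24.4 and 21.1 in BY4741 (log2 fold change 0.63, adjusted p = 0.0262, limma). Its adjusted p was 0.0942 with median-of-ratios scaling. The copy, HMLALPHA2, had 35.8 and 35.8 RPKM in the wild type of pyk1, against 25.2 and 17.7 in BY4741, and was not called (adjusted p = 0.0666). HMRA2 was not called either (adjusted p = 0.0515). The median log2 fold change of protein-coding genes lay between 0.10 on chromosome VI and 0.41 on chromosome XIV.

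The genes specific to a cells fell. All 7 a-specific genes were lower in the wild type of pyk1 and 6 passed the test, with a list median of -1.07 against 0.28 over all genes. BAR1, the protease that degrades alpha-factor, had 51.3 and 57.0 RPKM in the wild type of pyk1, against 276 and 381 in BY4741 (log2 fold change -2.56, SE 0.202, adjusted p = 0.00992). AGA2, the binding subunit of a-agglutinin, had 118 and 119 RPKM in the wild type of pyk1, against 653 and 542 in BY4741 (log2 fold change -2.32, adjusted p = 0.00791). MFA1, an a-factor precursor, had 262 and 263 RPKM in the wild type of pyk1, against 1113 and 808 in BY4741 (log2 fold change -1.85, adjusted p = 0.0135). The groups did not overlap at any of these genes, as at 78.1% of all genes. MFA2, the second a-factor precursor, differed less, with 460 and 466 RPKM in the wild type of pyk1 and 793 and 785 in BY4741. ASG7 was the member not called, at 25.5 and 21.3 RPKM in the wild type of pyk1 and 62.4 and 39.9 in BY4741.

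Of 16 pheromone-induced genes, 11 fell and 3 rose, with a median of -0.96. PRM1, a membrane protein of cell fusion whose window above holds 3 pheromone response elements, had 4.01 and 3.57 RPKM in the wild type of pyk1, against 60.0 and 50.9 in BY4741 (log2 fold change -3.56, SE 0.129, adjusted p = 0.00791). PRM6 had 0.657 and 0.255 RPKM in the wild type of pyk1, against 13.9 and 11.7 in BY4741, from 11 and 4 reads against 208 and 173. FUS1, required for fusion of mating cells, had 16.3 and 15.9 RPKM in the wild type of pyk1, against 81.7 and 83.9 in BY4741 (log2 fold change -2.29). AGA1, the anchor subunit of a-agglutinin, PRM4 and FIG1 also fell by more than 2 log2 units. Regulators of the pathway went both ways. SST2, which damps the pheromone G protein, had 53.2 and 59.4 RPKM in the wild type of pyk1, against 88.6 and 94.7 in BY4741 (log2 fold change -0.69, adjusted p = 0.0187). KAR4, a transcription factor that acts with Ste12, had 59.0 and 73.7 RPKM in the wild type of pyk1, against 103 and 104 in BY4741 (log2 fold change -0.64, adjusted p = 0.0407). MSG5, a phosphatase of the mating kinases, had 49.7 and 45.7 RPKM in the wild type of pyk1, against 14.3 and 14.7 in BY4741 (log2 fold change 1.65). KSS1, a mitogen-activated kinase, had 60.4 and 67.7 RPKM in the wild type of pyk1, against 20.4 and 20.1 in BY4741 (log2 fold change 1.61). STE12, the transcription factor, was higher by 0.73 log2 units (adjusted p = 0.0185), though its adjusted p was 0.0556 with median-of-ratios scaling. STE4 and STE18, subunits of the pheromone G protein, fell by 0.77 and 0.74 log2 units, and STE5, the scaffold, had 52.2 and 51.4 RPKM in the wild type of pyk1 and 52.0 and 49.9 in BY4741.

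**Figure D2:**
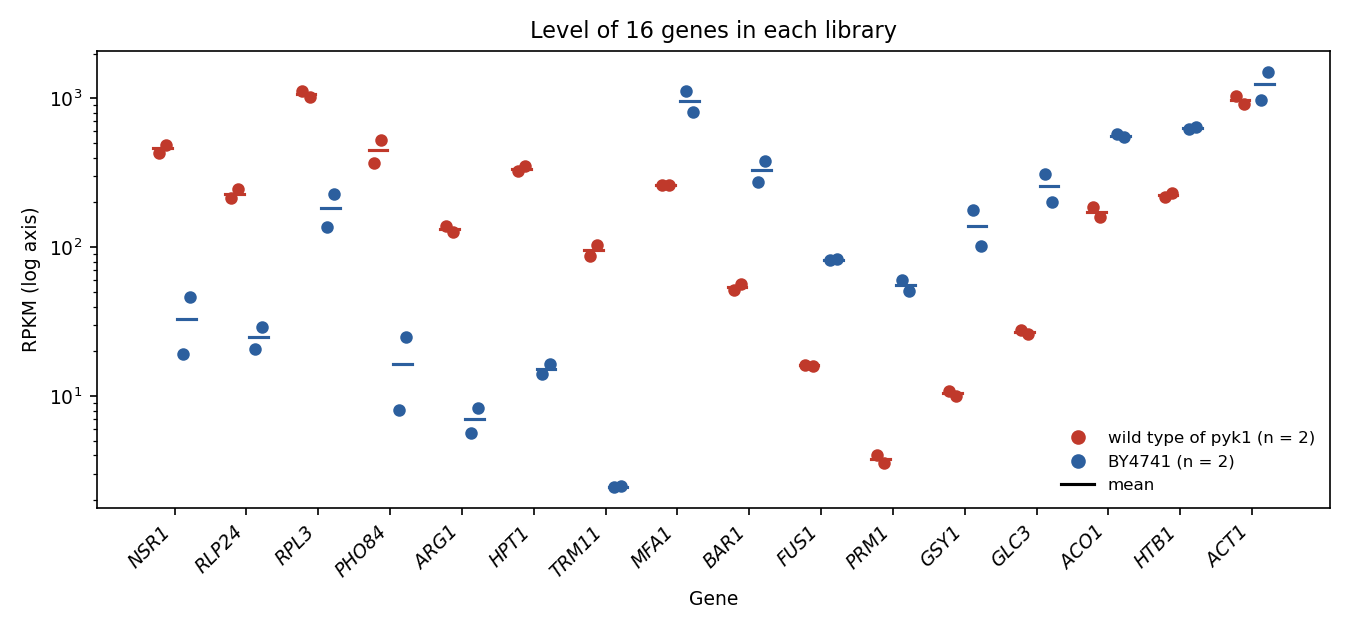
RPKM (log axis) of 16 genes in each library, with wild type of pyk1 in red left of BY4741 in blue, a point for each library and a bar for the mean of 2. NSR1 to TRM11 are higher in the wild type of pyk1, MFA1 to HTB1 lower, and ACT1 overlaps.

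Genes of ribosome production were higher. Of 56 ribosome biogenesis factors, 50 were called higher in the wild type of pyk1 and 0 lower, and the list median was 2.11 against 0.28 over all genes. NSR1, a nucleolar protein of pre-rRNA processing, had 432 and 490 RPKM in the wild type of pyk1, against 19.1 and 46.7 in BY4741 (log2 fold change 3.90, SE 0.5, adjusted p = 0.0168). DBP2, an RNA helicase, had 376 and 424 RPKM in the wild type of pyk1, against 14.9 and 55.1 in BY4741 (log2 fold change 3.75, adjusted p = 0.0326). RLP24, a factor of the large subunit, had 213 and 245 RPKM in the wild type of pyk1, against 20.8 and 29.0 in BY4741 (log2 fold change 3.16, adjusted p = 0.0085). UTP5, of the small-subunit processome, had 107 and 125 RPKM in the wild type of pyk1, against 10.8 and 14.3 in BY4741. BY4741 replicate 3 was above replicate 2 at each of these genes, yet below both libraries of the wild type of pyk1. The exceptions were NOP56 and RRP5, at which the groups overlapped. NOP56 had 239 and 262 RPKM in the wild type of pyk1, against 202 and 379 in BY4741. RRP5 had 117 and 142 RPKM in the wild type of pyk1, against 59.2 and 119 in BY4741. The remaining 4 uncalled genes, NOP1, UTP8, RRP12 and DRS1, did not overlap and had adjusted p from 0.0536 to 0.0574.

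Of 137 ribosomal protein genes, a group taken from the annotation after the data were seen, 66 rose, 0 fell and the median was 1.35. Over all genes 33.5% rose, 10.2% fell and the median was 0.28. By sequence, 13 of the 137 could share reads with another gene. RPL3, a large-subunit protein with 1 gene, had 1121 and 1027 RPKM in the wild type of pyk1, against 137 and 228 in BY4741 (log2 fold change 2.59, SE 0.305, adjusted p = 0.015). RPS3, of the small subunit, had 749 and 734 RPKM in the wild type of pyk1, against 107 and 212 in BY4741. The smallest difference was at RPS28A, with 562 and 570 RPKM in the wild type of pyk1 and 376 and 680 in BY4741. Small nucleolar RNAs, guides for rRNA modification, had 33 of 76 higher, 7 lower and a median of 0.37, close to the 0.28 of all genes. SNR52 had 150 and 145 RPKM in the wild type of pyk1, against 5.4 and 7.01 in BY4741, and SNR42 had 1676 and 1710 RPKM in the wild type of pyk1, against 3497 and 4036 in BY4741.

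A tRNA modification gene and purine salvage genes stood among the largest rises. TRM11, the catalytic subunit of a tRNA methyltransferase, had 87.8 and 104 RPKM in the wild type of pyk1, against 2.45 and 2.48 in BY4741 (log2 fold change 4.80, SE 0.121, adjusted p = 0.00791), and was called under all 13 alternatives. HPT1, which salvages hypoxanthine and guanine, had 327 and 349 RPKM in the wild type of pyk1, against 14 and 16.5 in BY4741 (log2 fold change 4.39). AAH1, adenine deaminase, had 134 and 155 RPKM in the wild type of pyk1, against 2.72 and 8.38 in BY4741 (log2 fold change 4.62). FCY2, the purine and cytosine permease, had 396 and 453 RPKM in the wild type of pyk1, against 21.8 and 37.1 in BY4741 (log2 fold change 3.85). Against wt acs2 the log2 fold changes were smaller, at 1.16 for TRM11, 0.48 for HPT1, 0.88 for AAH1 and 0.65 for FCY2. HPT1 was not called there (adjusted p = 0.0819, limma), while TRM11, AAH1 and FCY2 were called higher. ADE4, the first enzyme of purine synthesis, was looked up after these were seen. It had 156 and 165 RPKM in the wild type of pyk1, against 21.7 and 25.9 in BY4741 (log2 fold change 2.71, adjusted p = 0.00791). MTD1, also looked up afterwards, a folate dehydrogenase of one-carbon metabolism, had 235 and 200 RPKM in the wild type of pyk1, against 12.2 and 15.2 in BY4741 (log2 fold change 3.90).

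The plot of fold changes by list sets these groups beside the rest.

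**Figure D3:**
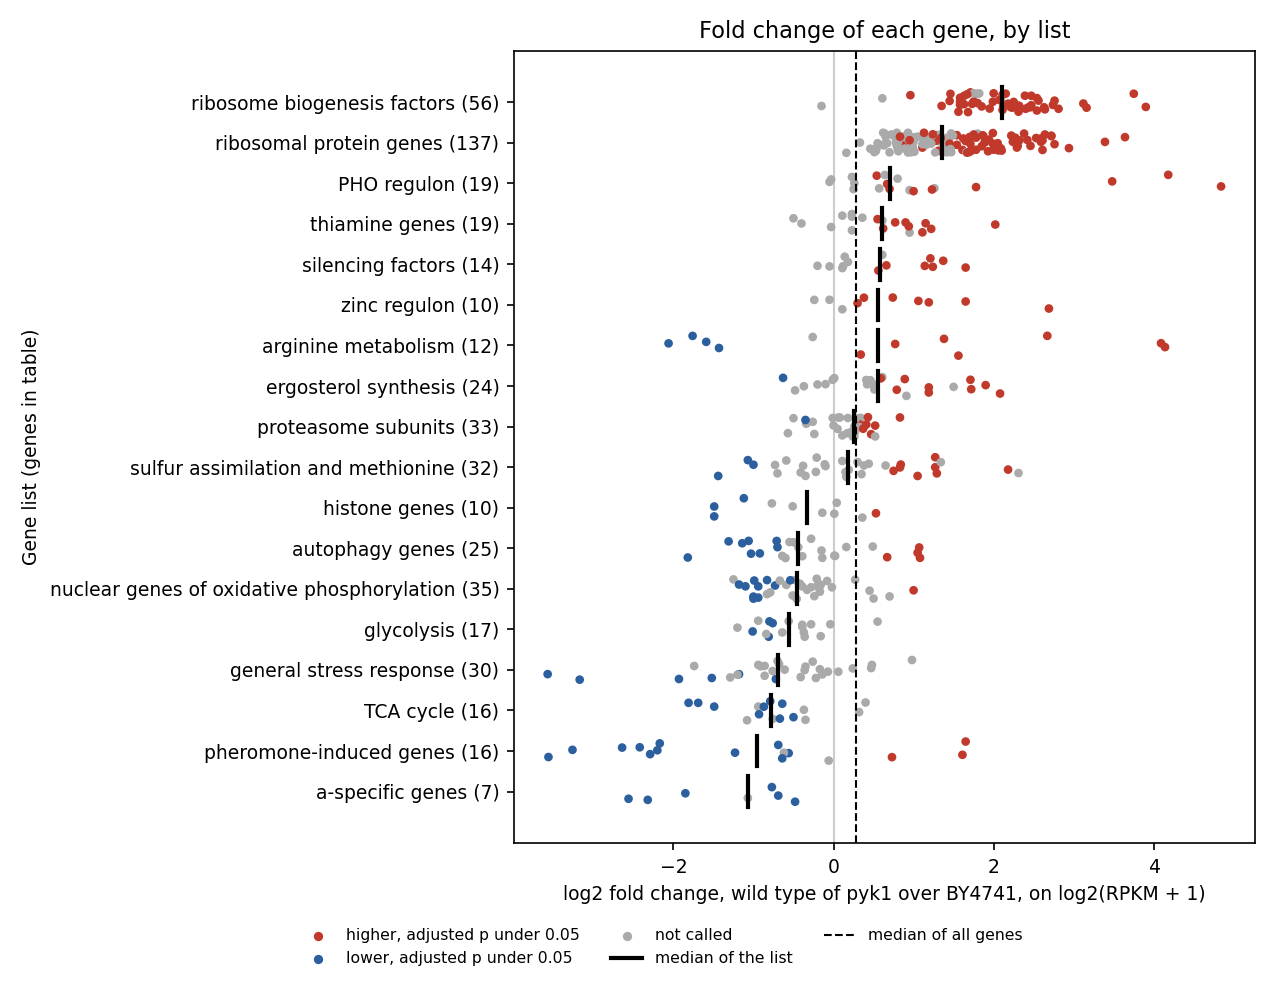
Log2 fold change on log2(RPKM + 1) of wild type of pyk1 over BY4741 (horizontal axis) for each gene of 18 lists, red where higher and blue where lower at an adjusted p under 0.05, with a thick bar for the list median and a dashed line at 0.28, the median over all genes. Ribosome biogenesis factors centre at 2.11 and a-specific genes at -1.07.

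Several phosphate uptake genes were higher in the wild type of pyk1. Of 19 genes of the PHO regulon 9 rose, 0 fell and the median was 0.70. Over all genes 33.5% rose and the median was 0.28. With median-of-ratios scaling 5 of the 19 rose, 0 fell and the median was 0.38, against 0.01 over all genes. PHO84, the high-affinity phosphate transporter, had 368 and 526 RPKM in the wild type of pyk1, against 8.13 and 24.8 in BY4741 (log2 fold change 4.84, SE 0.627, adjusted p = 0.017). PHM6 had 55.6 and 52.3 RPKM in the wild type of pyk1, against 1.8 and 2.27 in BY4741 (log2 fold change 4.18). PHO89, a sodium-phosphate cotransporter, had 7.40 and 21.1 RPKM in the wild type of pyk1, against 0.329 and 0.125 in BY4741, from 202 and 538 reads against 8 and 3. PHO90, a low-affinity transporter, was higher by 1.78 log2 units. PHO5, the secreted acid phosphatase and best known member of the regulon, was not called, with 32.2 and 28.1 RPKM in the wild type of pyk1 and 25.9 and 25.2 in BY4741.

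Arginine genes moved in both directions, with 7 of 12 higher and 4 lower, against 33.5% and 10.2% of all genes. ARG1 and ARG3, enzymes of arginine synthesis, were higher: ARG1 had 140 and 127 RPKM in the wild type of pyk1, against 5.67 and 8.29 in BY4741 (log2 fold change 4.09), and ARG3 had 72.7 and 56.3 RPKM in the wild type of pyk1, against 1.95 and 3.59 in BY4741 (log2 fold change 4.14). CPA1, the small subunit of carbamoyl phosphate synthetase, had 336 and 345 RPKM in the wild type of pyk1, against 55.1 and 50.2 in BY4741 (log2 fold change 2.67). The arginine-degrading enzyme CAR2 had 27.8 and 29.5 RPKM in the wild type of pyk1, against 162 and 92.6 in BY4741 (log2 fold change -2.06). ARG4, argininosuccinate lyase, was lower, with 32.5 and 31.7 RPKM in the wild type of pyk1 and 87.2 and 112 in BY4741 (log2 fold change -1.59).

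Some genes of glycogen synthesis and of respiration were lower. Of 30 general stress genes, 6 fell and 0 rose, with a median of -0.69. Over all genes 10.2% fell, 33.5% rose and the median was 0.28. GSY1, glycogen synthase, had 10.9 and 10 RPKM in the wild type of pyk1, against 178 and 102 in BY4741 (log2 fold change -3.57, SE 0.325, adjusted p = 0.0114). GLC3, the branching enzyme, had 27.8 and 26.0 RPKM in the wild type of pyk1, against 310 and 203 in BY4741 (log2 fold change -3.17). GSY2, the second glycogen synthase, had 124 and 116 RPKM in the wild type of pyk1, against 341 and 218 in BY4741 (log2 fold change -1.18, adjusted p = 0.0438). GPH1, glycogen phosphorylase, and TPS1, trehalose phosphate synthase, were not called (adjusted p = 0.109 and 0.062). The classical stress markers HSP12, HSP26 and CTT1 were not called. HSP12, a small heat shock protein, had 2472 and 2904 RPKM in the wild type of pyk1 and 2313 and 799 in BY4741. The 6 genes that fell were TPS2, GSY1, GSY2, GLC3, SOL4 and GPD1, which act in trehalose, glycogen, pentose phosphate and glycerol metabolism.

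Of 16 TCA cycle genes, 9 fell, 0 rose and the median was -0.78. The lists here are read against 10.2% lower, 33.5% higher and a median of 0.28 over all genes. ACO1, aconitase, had 186 and 161 RPKM in the wild type of pyk1, against 577 and 549 in BY4741 (log2 fold change -1.69, SE 0.115, adjusted p = 0.00884). KGD2, of alpha-ketoglutarate dehydrogenase, had 71.0 and 66.8 RPKM in the wild type of pyk1, against 276 and 214 in BY4741 (log2 fold change -1.81). Nuclear genes of oxidative phosphorylation showed 10 lower and 1 higher of 35, with a median of -0.46. The gene that rose was CYC1, the main cytochrome c, but with median-of-ratios scaling 14 of this list were lower and 0 higher. In glycolysis 4 of 17 genes were lower, none was higher and the median was -0.56. CDC19, which encodes the pyruvate kinase Pyk1, had 4073 and 3162 RPKM in the wild type of pyk1 and 6049 and 6816 in BY4741, and its change of -0.84 log2 units was not called (adjusted p = 0.103). MDH2, the cytosolic malate dehydrogenase of gluconeogenesis, had 31.3 and 38.2 RPKM in the wild type of pyk1, against 191 and 169 in BY4741 (log2 fold change -2.34).

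Of the other genes mutated in the series, SER33 was called higher and SAM1, SHM2 and ACS2 were not called. SAM1, S-adenosylmethionine synthetase, had 218 and 261 RPKM in the wild type of pyk1, against 28.9 and 77.2 in BY4741, a log2 fold change of 2.31 whose adjusted p was 0.0505. SHM2, a serine hydroxymethyltransferase, had 618 and 537 RPKM in the wild type of pyk1, against 110 and 283 in BY4741 (log2 fold change 1.70, adjusted p = 0.0868). SER33, phosphoglycerate dehydrogenase, had 75.5 and 75.3 RPKM in the wild type of pyk1, against 28.1 and 33.9 in BY4741, and was called higher by 1.26 log2 units (SE 0.121, adjusted p = 0.0118). ACS2, acetyl-CoA synthetase, had 116 and 99.4 RPKM in the wild type of pyk1 and 117 and 201 in BY4741, and was not called. ACT1, the actin gene, had 1040 and 920 RPKM in the wild type of pyk1 and 976 and 1515 in BY4741.

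Among silencing and autophagy genes the share called was near the 43.7% called over all genes. Of 14 silencing factors 7 were higher and 0 lower. SIR2, the histone deacetylase of silent chromatin, had 32.6 and 33.1 RPKM in the wild type of pyk1, against 12.9 and 13.7 in BY4741 (log2 fold change 1.24, SE 0.0801, adjusted p = 0.00833). SIR3 and SIR4, its partners, were not called, and SIR4 had 21.4 and 23.6 RPKM in the wild type of pyk1 and 23.7 and 22.9 in BY4741. Of 25 autophagy genes 8 were lower and 4 higher, with a median of -0.44, so falls were more common and rises less common than over all genes. ATG8, the ubiquitin-like protein of the autophagosome, had 42.7 and 47.7 RPKM in the wild type of pyk1, against 141 and 91.3 in BY4741 (log2 fold change -1.31, adjusted p = 0.0343). ATG5, which takes part in ATG8 lipidation, had 36.6 and 34.3 RPKM in the wild type of pyk1, against 16.9 and 15.8 in BY4741 (log2 fold change 1.07, adjusted p = 0.0102). Of 10 histone genes, HTB1, HHT1 and HHT2 were lower and HTA1 was higher, but with median-of-ratios scaling 6 were lower and 0 higher. HTB1, a gene of histone H2B, had 218 and 232 RPKM in the wild type of pyk1, against 625 and 644 in BY4741 (log2 fold change -1.49).

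Membrane and metal genes are read against the 33.5% higher and 10.2% lower of all genes. Of 24 ergosterol genes 9 were higher, close to that share, and 1, ERG9, was lower, with ERG11, the target of azole drugs, at 418 and 430 RPKM in the wild type of pyk1, against 96.3 and 132 in BY4741 (log2 fold change 1.90). Of 10 zinc genes 7 were higher and 0 lower, and with median-of-ratios scaling 5 were higher and 1 lower. The CUP1 metallothionein copies were higher by 2.57 and 2.55 log2 units, but their reads cannot be split between the copies, whose number varies between strains. Of 19 thiamine genes 9 were higher and 0 lower, and with median-of-ratios scaling 7 were higher and 1 lower. By sequence, 8 of the 19 could share reads with another gene. Of 28 iron regulon genes 9 were higher and 2 lower, a share of rises near that of all genes, and with median-of-ratios scaling 2 were higher and 8 lower. Of 33 proteasome subunits 8 rose, 1 fell and the median was 0.26, which became -0.05 with median-of-ratios scaling.

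A few genes were well above 0 in the wild type of pyk1 and near 0 in BY4741. With over 10 RPKM in both libraries of the wild type of pyk1 and under 0.5 RPKM in both BY4741 libraries, 8 genes qualified, and 0 qualified the other way. YMR244W had 42.8 and 43.4 RPKM in the wild type of pyk1, against 0.266 and 0.403 in BY4741, from 724 and 687 reads against 4 and 6. SPO19 had 12.6 and 13.5 RPKM in the wild type of pyk1, against 0.317 and 0.107 in BY4741. The mitochondrial tRNA genes tQ(UUG)Q, with 18.3 and 29.3 RPKM in the wild type of pyk1, and tH(GUG)Q, with 18.5 and 28.8, were listed at 0 in both BY4741 libraries. These are 22 to 33 reads a library in the wild type of pyk1. Such genes also varied between libraries of 1 strain. tH(GUG)Q had 0.957 and 15.3 RPKM in pyk1 and 0 and 8.88 in sam1. tQ(UUG)Q had 4.72 and 19.2 RPKM in pyk1 and 1.81 and 14.9 in sam1. YMR230W-A, also in the set, had 0.363 and 18.3 RPKM in sam1. The remaining members of the set were tP(UGG)Q, YOR102W and YBL094C. ANS1, the gene with the largest fitted rise, was just outside it, at 51.4 and 61.7 RPKM in the wild type of pyk1, against 0.296 and 0.747 in BY4741 (log2 fold change 5.25, SE 0.211). YOR338W had 150 and 169 RPKM in the wild type of pyk1, against 4.16 and 3.74 in BY4741, and YGR079W had 237 and 258 in the wild type of pyk1, against 6.82 and 8.44. BSC1 and PRM7, which lie next to each other on chromosome IV, were higher by 4.61 and 4.50 log2 units. PRM7 was not on the list of pheromone-induced genes, so the counts given for that list leave it out. YOR121C, with 43.0 and 34.0 RPKM in the wild type of pyk1 and 1.39 and 0.468 in BY4741, was not matched to the annotation.

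TAR1, which lies antisense within the 25S rRNA gene and was among the 15 largest falls, had 3.54 and 10.6 RPKM in the wild type of pyk1, against 57.1 and 34.0 in BY4741. RDN25-1, the 25S rRNA itself, had 50.0 and 268 RPKM in the wild type of pyk1, against 529 and 275 in BY4741. The counting is not stated to use strand, so reads of this pair cannot be told apart. YLR154W-A and YLR154W-B, not matched to the annotation, fell by 2.61 and 2.95 log2 units. These values are unsteady. With the second libraries of BY4741 they were -7.20 and -7.95, and TAR1 was at -7.28. The calls of TAR1, YLR154W-A and YLR154W-B held under 7, 7 and 8 of the 13 alternatives and were lost without any 1 of the 4 libraries. YIL082W, not matched to the annotation, had the lowest fold change together with GSY1, with 3.40 and 3.71 RPKM in the wild type of pyk1, against 56.6 and 49.8 in BY4741 (log2 fold change -3.57). MPC3, a subunit of the mitochondrial pyruvate carrier, had 5.02 and 7.19 RPKM in the wild type of pyk1, against 61.9 and 33.2 in BY4741 (log2 fold change -2.72). WSC4 had 9.80 and 7.65 RPKM in the wild type of pyk1, against 45 and 79.4 in BY4741, AIM17 had 38.6 and 32.3 in the wild type of pyk1, against 268 and 187, and COQ21 had 7.86 and 9.40 in the wild type of pyk1, against 63.5 and 52.8. MAL11, a maltose transporter, fell by 2.56 log2 units.

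The levels in the other strains place the 2 controls. The median log2(RPKM + 1) of ribosome biogenesis factors was 6.50 and 6.74 in the wild type of pyk1, 6.61 and 6.69 in pyk1, 5.92 and 5.71 in wt acs2, 5.47 and 5.59 in sam1, 5.38 and 4.68 in shm2, 4.28 and 4.29 in acs2, 4.26 and 4.18 in ser33 and 4.14 and 4.93 in BY4741. Both libraries of the pyk1 pair were thus above those of all other strains. For pheromone-induced genes the medians were 3.94 and 3.89 in the wild type of pyk1, 1.78 to 4.70 over the other strains and 5.20 and 5.17 in BY4741, the highest of the 8 strains. FUS1 had 30.1 and 14.9 RPKM in pyk1, 10.3 and 9.80 in wt acs2 and 45.4 to 52.2 in ser33 and shm2. For general stress genes the wild type of pyk1 had medians of 7.23 and 7.41, against 8.69 and 7.82 in BY4741. The medians were 7.58 and 7.30 in pyk1, 7.86 and 7.30 in wt acs2, 7.46 and 7.32 in acs2 and 7.47 and 6.85 in sam1. In shm2 they were 7.70 and 8.75, and in ser33 8.97 and 8.87. The low level was thus not particular to the wild type of pyk1.

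**Figure D4:**
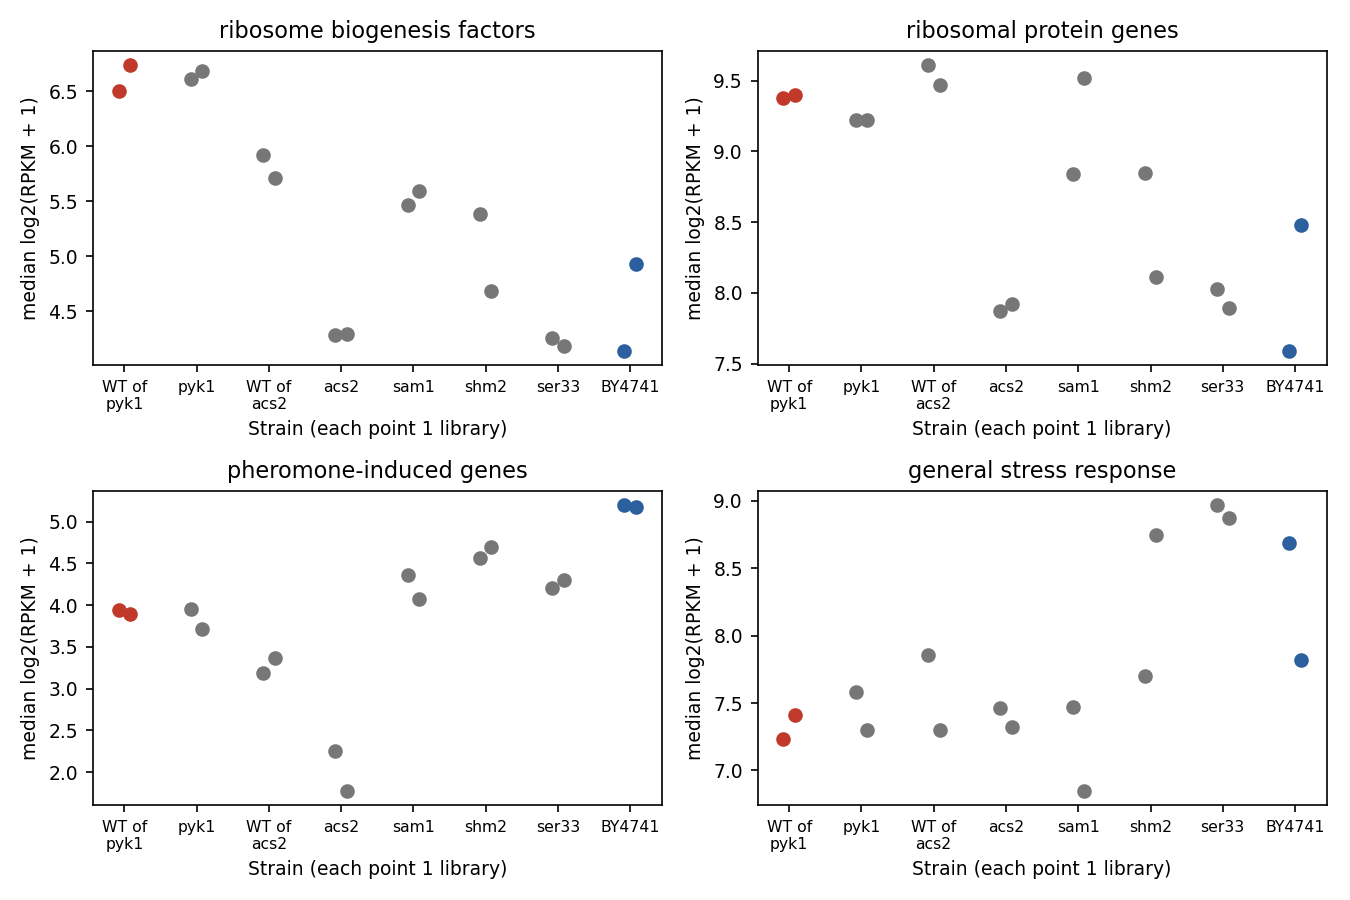
Median log2(RPKM + 1) of 4 gene lists in each first library of the 8 strains, with wild type of pyk1 in red and BY4741 in blue. For ribosome biogenesis factors the wild type of pyk1 sits at 6.50 and 6.74 and BY4741 at 4.14 and 4.93.

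Set against the other dedicated control, wt acs2, which shares the same libraries of the wild type of pyk1, 2162 genes were higher (30.3%) and 303 lower (4.25%). Over all genes the median log2 fold change against wt acs2 was 0.34, so list medians there are read against that shift. Ribosome biogenesis factors were higher there too, with a median of 0.80 and 51 of 56 called. The ribosomal protein genes had a median of -0.12 against wt acs2, with 4 higher and 12 lower, and 1.35 against BY4741. The a-specific genes had a median of -0.15 against wt acs2, with 1 higher and 1 lower. Pheromone-induced genes had a median of 0.65 against wt acs2, with 9 higher and 1 lower, and -0.96 against BY4741. GSY1 was lower against both, by 3.54 log2 units against wt acs2, in which it had 150 and 116 RPKM. ANS1 was higher against both, by 4.58 log2 units against wt acs2, in which it had 1.21 and 1.60 RPKM. This count rests on the replicates: without wt acs2 replicate 2 no gene was called by limma (3215 at an unadjusted p under 0.05), and without wt pyk1 replicate 1 or 3 the calls numbered 17 (3 higher, 14 lower) and 35 (13 higher, 22 lower).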

How the data were processed

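The deposited table holds RPKM values that the authors made, per the submitters' processing notes, with CASAVA 1.8.2, TopHat2 2.0.13 and edgeR on the sacCer3 genome; the counting setting and the annotation are not given in the sources used here. It covers 7125 genes in 28 libraries, and 32 further value columns were empty and not used. RPKM are not counts, so log2(RPKM + 1) was fitted with limma 3.58.1 in R 4.3.3 (mean-variance trend, Benjamini-Hochberg adjustment over all genes, threshold 0.05). Fold changes are on that scale and understate the change of low genes. The main fit held only the 4 libraries. Read totals were recovered from the whole-read steps of 5466 genes with 1 exon (100% of low values whole, within 0.1 read). In data simulated for this comparison, 146 of 200 genes changed by 2 log2 units were recovered among 7125 genes and 9 unchanged genes were called. The simulation gave both strains the same spread, shuffled it over genes and changed only those 200. It checks the code and does not give the error rate of the real comparison. Of the IDs, 6162 matched RefSeq R64 and 963 did not. With BLAST+ 2.17.0, 312 genes shared at least 95% identity over 80% of their length with another.

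The libraries and the 42 gene lists were chosen with earlier results of these data known. Named genes are all strain markers, up to 15 genes per direction with the largest change (called, libraries not overlapping, at least 5 RPKM, no near-identical copy, and no nuclear tRNA gene), up to 4 per list, and the SESAME genes with ACT1. Any other gene named was chosen after its values were seen, as were the ribosomal protein, mitochondrial tRNA and snoRNA groups. Alternatives were another pseudocount, a minimum mean, no trend, other scalings, other libraries and leaving out each library.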

Additional observations from a re-analysis of the deposited data

How the results depend on the processing

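No paired analysis was possible because the wild type of pyk1 has replicates 1 and 3 and BY4741 has 2 and 3, so they share only 1 number. The 3114 genes called became 1504 relative to ACT1 (1412 higher, 92 lower) and 1575 with a log2 fold change of at least 1 (1301 higher, 274 lower). With median-of-ratios scaling the total was 3003, with 1584 higher and 1419 lower. Leaving out 1 library gave 149 to 3503 genes in all, 139 to 2563 higher and 7 to 940 lower. The low ends come from leaving out a library of the wild type of pyk1, after which 103 and 110 of the calls were shared with the full fit. Against wt acs2, where 2465 genes were called, leaving out 1 library gave 0 to 3014. HAP1, with a log2 fold change of 0.00, turned to -0.31 with median-of-ratios scaling (adjusted p = 0.0436) and to -0.32 with the second libraries of BY4741 (adjusted p = 0.048). Median-of-ratios scaling also moved the median over all genes from 0.28 to 0.01, and ACT1 from -0.31 to -0.63. The cause of the HAP1 shift with the second libraries was not tested. Without either library of the wild type of pyk1, no list but the mitochondrial tRNA genes kept a called gene. Most of those tRNA genes sat at 0 in both BY4741 libraries, so they had no spread there to be judged against. With 1 library left out, the median of ribosome biogenesis factors ranged from 1.77 to 2.45, that of pheromone-induced genes from -1.09 to -0.94 and that of general stress genes from -1.13 to -0.34. With 2 libraries a strain the spread of single genes is poorly known, and genes at a few reads are uncertain.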
